A study of Homo sapiens with 15 samples.

Results

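Mitogen-activated protein kinase (MAPK) cascades carry signals through 3 tiers of kinases. A MAP kinase kinase kinase phosphorylates a MAP kinase kinase, which in turn phosphorylates a MAP kinase such as ERK, p38 or JNK. In monocytes these cascades lie downstream of the receptors that sense bacterial products, and their output includes the transcription and mRNA stability of cytokine genes. The genes described here are the 7 MAP kinase kinases (MAP2K1 to MAP2K7) together with MAP3K7 and MAP3K8, the kinases one tier up that are best known from receptor signalling in innate immune cells. MAP3K7 (TAK1) is activated with its TAB partners below Toll-like and cytokine receptors, and MAP3K8 (TPL2) is held by the NFKB1 precursor protein and feeds the ERK branch in myeloid cells. They were taken by gene symbol from the table of 60286 genes, and 9 of 9 were found and passed the filter on low counts that left 17198 genes for testing. MAP2K6 was selected on its log2 fold changes against the control cells, which were among the lowest in every stimulated group, so its differences from the control cells are given as a description, with no test. The other 8 genes were taken by family.

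The cells were THP-1, a human monocytic leukaemia line, labelled wild type. They were incubated for 6 h with bacterial extracellular vesicles (BEVs), the membrane vesicles that bacteria shed, or with PBS as the negative control. The vesicles came from E. coli (1 μg/mL of protein) or from S. aureus (10 μg/mL), and each kind was isolated either by ultracentrifugation (UC) or by precipitation with ε-poly-L-lysine (PL). This gave 5 groups of 3 libraries, named PBS, EUC, EPL, SUC and SPL. Species and dose changed together, so that a difference between E. coli and S. aureus vesicles cannot be told apart from a difference in dose. Nothing in the labels says that the 3 libraries of a group came from separate cultures, so the p-values measure the spread between these libraries, which may be technical. All 4 stimulated groups were compared with the same PBS libraries, and these comparisons are therefore not independent of each other.

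The libraries held 14399421 to 16637345 counts. Of 12 monocyte markers, 11 reached a mean of 1 CPM (counts scaled to TMM library sizes), and their summed level was 2810 to 2850 CPM in PBS and 3700 to 4380 CPM in the stimulated libraries. Single markers went both ways. SPI1 went from a mean of 471 CPM in PBS to between 960 and 1200 CPM in the stimulated groups, and ITGB2 from 830 to between 1040 and 1210 CPM. CD33, LYZ and ITGAM were lower on average in every stimulated group than in PBS, CD33 at 50.1 to 64.8 against 82.8 CPM. CD68 was low, at a mean of 0.0766 CPM. None of the T cell, epithelial or erythroid markers reached 1 CPM, and HBA1, HBB, CD3D and KRT19 were at 0 in every library. Of the fibroblast and endothelial lists 1 of 3 markers each reached 1 CPM, namely COL1A1 and PECAM1. The summed fibroblast markers were 0.64 to 0.941 CPM in PBS and 2.06 to 6.95 CPM in the stimulated libraries, and the summed endothelial markers 303 to 309 and 209 to 287 CPM. Their part in the results was not tested. EPL1, EUC2, EUC3 and SUC3 stood apart from the other 8 stimulated libraries when all libraries were clustered into 3, and calls that changed without them are given both ways where they are described. Leaving out EUC2 and EUC3 leaves a single EUC library, which is then assumed to vary like the other groups.

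The promoters of the 2 genes that rose in every stimulated group and of MAP2K6 are shown because these genes lay on opposite sides of their PBS levels. RefSeq windows (GRCh38.p14) from 250 bases before to 50 bases after an annotated start matched all 9 genes, with 16 windows in total. The κB consensus, searched by name on both strands, matched 5 of the 16 windows, against 11.27% of all 35116 RefSeq windows. These 5 windows were the 2 of MAP2K3 and the 3 of MAP3K8, of which the first and second overlap and share the same match. The AP-1 motif TGANTCA was found in 1 window of MAP2K3 and 1 of MAP3K8 (7.71% of all windows), and the CRE motif TGACGTCA in 0 of 16 (1.85% of all windows). Below are the first and last windows of MAP3K8 at chr10:30433771-30434070 and chr10:30434396-30434695, the second window of MAP2K3 at chr17:21287786-21288085, and the first window of MAP2K6 at chr17:69414447-69414746, all on the plus strand. Capitals mark the κB matches, which start at -29 and -207 from the MAP3K8 starts and, as an overlapping pair, at -78 and -77 from the MAP2K3 start. The MAP2K6 window held none of the 3 motifs.
MAP3K8 first window: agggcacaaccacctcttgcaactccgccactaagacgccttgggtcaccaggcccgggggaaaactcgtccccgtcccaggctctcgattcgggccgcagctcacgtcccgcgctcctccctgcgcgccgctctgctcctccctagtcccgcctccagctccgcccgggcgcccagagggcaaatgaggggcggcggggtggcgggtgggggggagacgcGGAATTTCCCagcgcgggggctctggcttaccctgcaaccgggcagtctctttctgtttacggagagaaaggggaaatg
MAP3K8 last window: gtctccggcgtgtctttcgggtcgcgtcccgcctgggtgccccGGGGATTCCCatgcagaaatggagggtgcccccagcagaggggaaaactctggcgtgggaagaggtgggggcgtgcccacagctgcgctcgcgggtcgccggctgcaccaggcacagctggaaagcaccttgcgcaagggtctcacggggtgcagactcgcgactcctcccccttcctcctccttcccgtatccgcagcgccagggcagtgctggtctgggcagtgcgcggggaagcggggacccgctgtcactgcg
MAP2K3 second window: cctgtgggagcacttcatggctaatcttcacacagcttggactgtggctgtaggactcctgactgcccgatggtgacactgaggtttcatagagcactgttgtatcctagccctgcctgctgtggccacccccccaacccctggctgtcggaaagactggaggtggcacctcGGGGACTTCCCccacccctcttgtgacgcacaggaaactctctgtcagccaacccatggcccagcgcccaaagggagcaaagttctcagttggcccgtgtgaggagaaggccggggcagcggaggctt
MAP2K6 first window: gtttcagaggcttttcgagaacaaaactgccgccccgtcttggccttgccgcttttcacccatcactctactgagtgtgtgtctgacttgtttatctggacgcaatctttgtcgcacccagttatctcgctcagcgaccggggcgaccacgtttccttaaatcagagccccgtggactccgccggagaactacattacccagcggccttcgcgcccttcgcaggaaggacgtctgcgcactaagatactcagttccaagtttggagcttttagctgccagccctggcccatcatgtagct
The matches describe letters in these windows. The counts do not show which start was used, and binding was not measured.

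MAP3K8 (ENSG00000107968, chr10:30434021-30461833, plus strand, hg38) rose about 5-fold in every stimulated group and was the only one of the 8 tested genes to pass both thresholds used for differentially expressed genes (DEGs), a 2-fold change or more and an adjusted p no higher than 0.01. The PBS libraries stood at 10.4, 11.8 and 12.8 CPM. EUC libraries reached 55.0, 70.3 and 72.6 CPM and EPL libraries 58.4, 54.5 and 52.8 CPM. SUC libraries reached 61.1, 54.2 and 63.6 CPM and SPL libraries 72.6, 70.6 and 73.8 CPM. The lowest stimulated library was thus far above the highest PBS library. In single stimulated groups, 46.7% to 54.4% of all tested genes likewise did not overlap with PBS, in either direction. For EUC, EPL, SUC and SPL the log2 fold changes of MAP3K8 were 2.50 ± 0.116 (SE), 2.24 ± 0.115, 2.35 ± 0.116 and 2.63 ± 0.116, or 5.66-, 4.73-, 5.11- and 6.20-fold. The adjusted p was 1.36e-11, 5.86e-11, 4.59e-11 and 9.58e-12 (edgeR's quasi-likelihood test, Benjamini-Hochberg adjustment over all 17198 genes). MAP3K8 kept its call without any one of the 15 libraries and without the 4 libraries that stood apart, where the log2 fold changes were 2.24, 2.20, 2.31 and 2.64.

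MAP3K7 (ENSG00000135341, chr6:90513573-90587086, minus strand) was the more abundant of the pair in PBS and differed little. The PBS libraries were close together at 85.2, 84.1 and 85.1 CPM (mean 84.8 ± 0.635, SD, n = 3). The E. coli groups averaged 101 ± 4.52 CPM (EUC) and 97.8 ± 5.73 CPM (EPL), the S. aureus groups 101 ± 2.47 CPM (SUC) and 98.2 ± 5.75 CPM (SPL), and the lowest stimulated library (91.3 CPM in EPL) was above all PBS libraries. The libraries of 50.8%, 52.1%, 46.7% and 54.4% of all tested genes likewise did not overlap between PBS and EUC, EPL, SUC and SPL, each taken alone. The share of genes without overlap in all 4 groups together was not computed. The log2 fold changes of MAP3K7 were 0.25, 0.21, 0.25 and 0.21 (SE 0.0736 each), and with edgeR adjusted p-values of 0.0112, 0.0344, 0.0164 and 0.0352 none passed the threshold. DESeq2 called MAP3K7 in EUC (0.26, adjusted p = 0.00155) and in SUC (adjusted p = 0.00359), and edgeR without EPL1 also called both (adjusted p = 0.0064 and 0.0093). Without the 4 libraries that stood apart MAP3K7 passed in EPL (0.26, adjusted p = 0.00127), SUC (0.24, adjusted p = 0.00349) and SPL (0.22, adjusted p = 0.00246), but not in EUC (0.18, adjusted p = 0.0787).

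Of the p38 kinases that do not also act on JNK, MAP2K3 rose in all 4 stimulated groups and MAP2K6 was far lower in all 4 than in PBS. MAP2K3 (ENSG00000034152, chr17:21284672-21315232, plus strand), which phosphorylates p38, was at 30.5, 34.1 and 37.5 CPM in PBS. It stood at 52.8, 56.3 and 66.1 CPM in EUC, 59.4, 48.4 and 47.8 in EPL, 42.9, 49.7 and 56.4 in SUC, and 46.3, 46.4 and 45.3 in SPL. Every stimulated library was above every PBS library. In single stimulated groups, 46.7% to 54.4% of all tested genes likewise did not overlap with PBS, in either direction. MAP2K3 rose 1.72-, 1.52-, 1.46- and 1.35-fold in EUC, EPL, SUC and SPL, with log2 fold changes of 0.78, 0.61, 0.55 and 0.44 (SE 0.12 each) and edgeR adjusted p-values of 4.78e-05, 0.000588, 0.00197 and 0.00952. The size of the change was below the 2-fold limit for a DEG in each case. In EUC, EPL and SUC the highest library was one that stood apart (EUC3, EPL1 and SUC3), and without EPL1, EUC2, EUC3 and SUC3 the log2 fold changes were 0.63, 0.50, 0.46 and 0.44, all past the threshold. The SPL call was the least firm, since MAP2K3 passed there in 6 of 15 fits that left out 1 library (0.36 to 0.51, adjusted p from 0.00379 to 0.0585), and the SUC call was lost without PBS1 (0.47, adjusted p = 0.0163) or SUC3 (0.45, adjusted p = 0.0132).

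MAP2K6 (ENSG00000108984, chr17:69414697-69553865, plus strand), which also phosphorylates p38, was left with 8 counts or fewer in every stimulated library. In PBS it had 63, 74 and 54 counts, or 4.03, 4.35 and 3.22 CPM. Only 4, 8 and 3 counts remained in EUC, 0, 8 and 4 in EPL, 6, 6 and 6 in SUC, and 6, 6 and 4 in SPL. The highest stimulated library, EUC2, was at 0.513 CPM, below the lowest PBS library. The count of 0 in EPL1 allows a level of up to 0.197 CPM, taking 3 counts as the limit. The PBS mean was 3.87 ± 0.584 CPM (SD, n = 3), the E. coli means were 0.323 ± 0.167 CPM (EUC) and 0.253 ± 0.255 CPM (EPL), and the S. aureus means 0.394 ± 0.0176 CPM (SUC) and 0.348 ± 0.063 CPM (SPL). The fitted log2 differences from PBS were -3.54 (SE 0.464) for EUC and -3.88 (SE 0.480) for EPL, and those of the S. aureus groups -3.27 (SE 0.451) for SUC and -3.44 (SE 0.459) for SPL. Summed over the 3 libraries and scaled to library size, the PBS level was 11.9 times the EUC level, on 15 counts against 191. The corresponding ratios were 15.1 (12 counts) for EPL, 9.84 (18 counts) for SUC and 11.0 (16 counts) for SPL. The low counts leave these ratios imprecise. They use the values that chose MAP2K6 and are a description. In bulk RNA, fewer cells that express a gene and less RNA per cell cannot be told apart.

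Its mean log2 difference over the 4 comparisons, -3.53, was the 12th lowest of 17198 genes and the 6th lowest of 14526 genes with a mean of at least 1 CPM. MAP2K6 met that floor narrowly, at 1.04 CPM, and only through PBS (3.87 CPM, against 0.253 to 0.394 CPM in the stimulated groups). Both places use the values that chose MAP2K6 and are a description. Among the 14526 genes, those just below MAP2K6 were TCF23 (-4.25), ENSG00000259759 (-3.61) and ENSG00000269243 (-3.55). Those just above it were C16orf74 (-3.52), TERT (-3.32) and PADI2 (-3.27). The differences moved most with the low counts of EPL, where leaving out 1 library gave values from -4.84 to -3.33. Without the 4 libraries that stood apart the values for EUC, EPL, SUC and SPL were -3.85, -3.32, -3.27 and -3.43. In the other groups they ranged from -4.03 to -3.30 (EUC), -3.39 to -3.17 (SUC) and -3.56 to -3.29 (SPL).

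**Figure D1:**
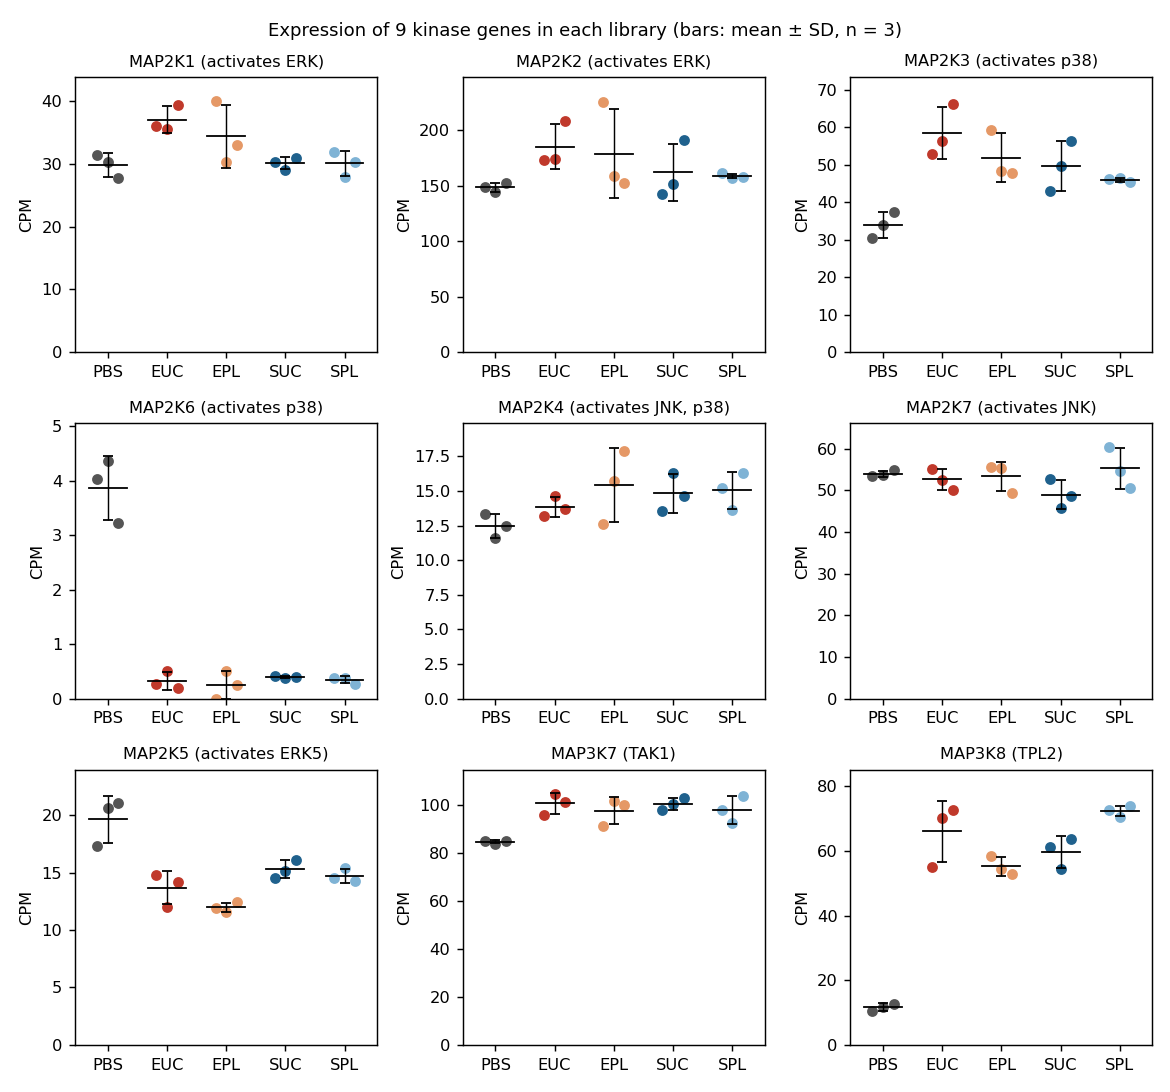
CPM of each gene in each library (points), by group, with the mean and SD of 3 libraries (bars) and axes that start at 0. MAP3K8 and MAP2K3 lie above all PBS libraries in every stimulated group, MAP2K6 lies at 0 to 0.513 CPM against 3.22 to 4.35 in PBS, and MAP2K2 has its highest values in EPL1, EUC3 and SUC3.

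MAP2K3 was far more abundant than MAP2K6 already in PBS, at a mean of 34.0 against 3.87 CPM before division by length. The exon lengths used were 3775 bases for MAP2K3 and 16660 bases for MAP2K6. With CPM divided by exon length (CPM per kb), MAP2K6 made up 2.91%, 2.81% and 1.91% of the sum of MAP2K3 and MAP2K6 in the PBS libraries, or 2.54 ± 0.553% (SD, n = 3). With E. coli vesicles its share was 0.128 ± 0.0708% (EUC) and 0.119 ± 0.119% (EPL), with S. aureus vesicles 0.182 ± 0.0302% (SUC) and 0.171 ± 0.0289% (SPL), and the highest stimulated library was at 0.238%. Dividing by the length of the MANE Select transcript (2256 and 13405 bases) gave 1.90% in PBS and 0.0883% to 0.135% in the stimulated groups. Both MAP2K6 lengths are long, and a shorter transcript in these cells would give a larger share, which was not tested. The share uses the values that chose MAP2K6 and is a description.

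The kinases of the ERK branch differed by less. MAP2K1 and MAP2K2 (MEK1 and MEK2) both phosphorylate the ERK kinases. MAP2K1 (ENSG00000169032, chr15:66386837-66491656, plus strand) was at 31.4, 30.2 and 27.7 CPM in PBS. It was at 36.0, 35.6 and 39.4 CPM in EUC, without overlap, as for 50.8% of all tested genes. The log2 fold change in EUC was 0.31 ± 0.102 (SE) and missed the threshold with an edgeR adjusted p of 0.021, while without EPL1, a library of another group that enters the shared estimate of the spread, it passed (0.31, adjusted p = 0.00686). In EPL it was 0.21 (adjusted p = 0.126), or 0.09 without the 4 libraries that stood apart, and in SUC and SPL it was 0.01, with 95% intervals from -0.20 to 0.23 and from -0.21 to 0.23. MAP2K1 shares 216 exon bases with SNAPC5 and 1322 with ENSG00000261351 on the opposite strand, and because the strand setting of the counting was not given in the sources used here, reads in those stretches cannot be assigned with certainty.

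MAP2K2 (ENSG00000126934, chr19:4090321-4124122, minus strand) was the most abundant of the 9 genes. It was at 149, 145 and 153 CPM in PBS, and its stimulated libraries ran from 143 to 225 CPM, with large spread within EPL (mean 179 ± 40.1 CPM, SD, n = 3). The highest library in each of 3 groups was one of those that stood apart, EPL1 at 225 CPM, EUC3 at 209 CPM and SUC3 at 192 CPM. The log2 fold changes were 0.32, 0.27, 0.13 and 0.10 in EUC, EPL, SUC and SPL, with edgeR adjusted p-values of 0.0686, 0.127, 0.528 and 0.632. Without EPL1, EUC2, EUC3 and SUC3 they were 0.22, 0.07, 0.00 and 0.10. With offsets for GC content and gene length the EUC value was 0.50 (adjusted p = 0.00364) and passed. A near-identical copy of part of MAP2K2, ENSG00000230626, held 25 counts over all libraries.

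The kinases of the JNK branch did not pass the threshold in any comparison on all 15 libraries. MAP2K4 phosphorylates both JNK and p38, and MAP2K7 acts on JNK. MAP2K4 (ENSG00000065559, chr17:12020829-12143830, plus strand) was at 13.3, 11.6 and 12.5 CPM in PBS and between 12.6 and 17.9 CPM in the stimulated libraries. Its log2 fold changes were 0.15, 0.31, 0.25 and 0.27 in EUC, EPL, SUC and SPL, and the edgeR adjusted p-values were 0.377, 0.0658, 0.153 and 0.115. EPL1 had the lowest MAP2K4 level among the stimulated libraries, and without it the EPL value was 0.43 and passed (adjusted p = 0.00881), as it did without all 4 libraries that stood apart (0.44, adjusted p = 0.00272). MAP2K7 (ENSG00000076984, chr19:7903843-7914478, plus strand) was at 53.5, 53.7 and 54.8 CPM in PBS and between 45.9 and 60.4 CPM in the stimulated libraries. Its log2 fold changes were -0.04, -0.02, -0.14 and 0.03, and the one farthest from 0, that of SUC, had a 95% interval from -0.32 to 0.04.

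MAP2K5 (ENSG00000137764, chr15:67542703-67807117, plus strand), the kinase of ERK5, was lower in every stimulated library than in any PBS library. PBS libraries stood at 17.3, 20.6 and 21.0 CPM. EUC libraries were at 14.8, 12.1 and 14.2 CPM, EPL libraries at 11.9, 11.6 and 12.4, SUC libraries at 14.6, 15.2 and 16.1, and SPL libraries at 14.5, 15.4 and 14.3. In single stimulated groups, 46.7% to 54.4% of all tested genes likewise did not overlap with PBS, in either direction. MAP2K5 fell in EUC, EPL and SPL, with log2 fold changes of -0.52 ± 0.107 (SE), -0.71 ± 0.108 and -0.42 ± 0.106 and edgeR adjusted p-values of 0.000776, 4.09e-05 and 0.00558. In SUC the value of -0.36 ± 0.106 did not pass (adjusted p = 0.0148). The EPL call held without any 1 library and without the 4 that stood apart. Without those 4 the EUC call was lost (-0.41, adjusted p = 0.0236) and SUC passed (-0.39, adjusted p = 0.00542). The SPL call was lost in 7 of 15 fits that left out 1 library, namely PBS2, PBS3, EPL2, SUC2 and each SPL library, with adjusted p of up to 0.0364.

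Counted together, 3 of the 8 tested genes were called in EUC, where 30.5% of all tested genes were called. The counts were 3 of 8 in EPL (29.2% of all genes), 2 of 8 in SUC (21.5%) and 3 of 8 in SPL (23.9%). MAP3K8 and MAP2K3 rose in all 4 comparisons, as did 10.9% of all genes. MAP2K5 was the gene that fell in EUC, EPL and SPL, where 14.0%, 13.2% and 10.6% of all genes fell. The shares of called genes among the 8 were thus close to those among all genes. DEGs numbered 1 in each comparison, MAP3K8 each time, against 15.2%, 14.5%, 9.88% and 11.5% of all genes. The median log2 fold change of the 8 genes was 0.28, 0.24, 0.19 and 0.15 in EUC, EPL, SUC and SPL, beside medians of 0.001, -0.001, 0.007 and -0.007 over all tested genes.

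**Figure D2:**
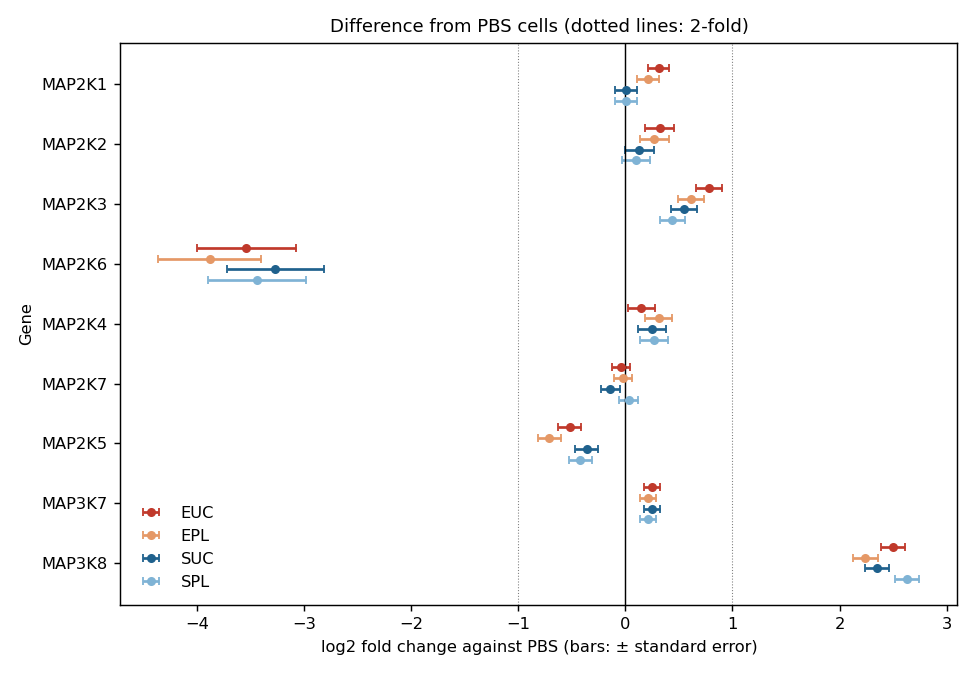
log2 fold change against PBS of each gene in EUC, EPL, SUC and SPL (points), with the standard error derived from the edgeR test (bars) and dotted lines at 2-fold. MAP3K8 lies between 2.24 and 2.63, MAP2K6 between -3.88 and -3.27, and the other 7 genes lie inside the dotted lines.

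Compared per exon length, the order of the genes changed with stimulation mainly through MAP3K8. In PBS the order of levels in CPM per kb was MAP2K2 (19.1), MAP2K7 (10.5), MAP2K3 (9.01), MAP3K7 (8.90), MAP2K1 (4.61), MAP2K5 (3.90), MAP3K8 (3.31), MAP2K4 (2.18) and MAP2K6 (0.232). The neighbours MAP2K3 (9.01 ± 0.933, SD, n = 3) and MAP3K7 were within their spread of each other. MAP3K8 went from place 7 in PBS to place 2 with EUC (18.8 CPM per kb), EPL (15.7) and SUC (17.0), and in SPL it was level with MAP2K2 (20.6 ± 0.466 and 20.4 ± 0.277 CPM per kb). MAP2K3 followed at 15.5, 13.7, 13.2 and 12.2 CPM per kb. With the MANE Select length, MAP2K2 stayed at place 1 in all groups and MAP3K8 took place 3 with EUC and SUC, place 4 with EPL and place 2 with SPL. MAP2K6 was the lowest in every group on both lengths.

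**Figure D3:**
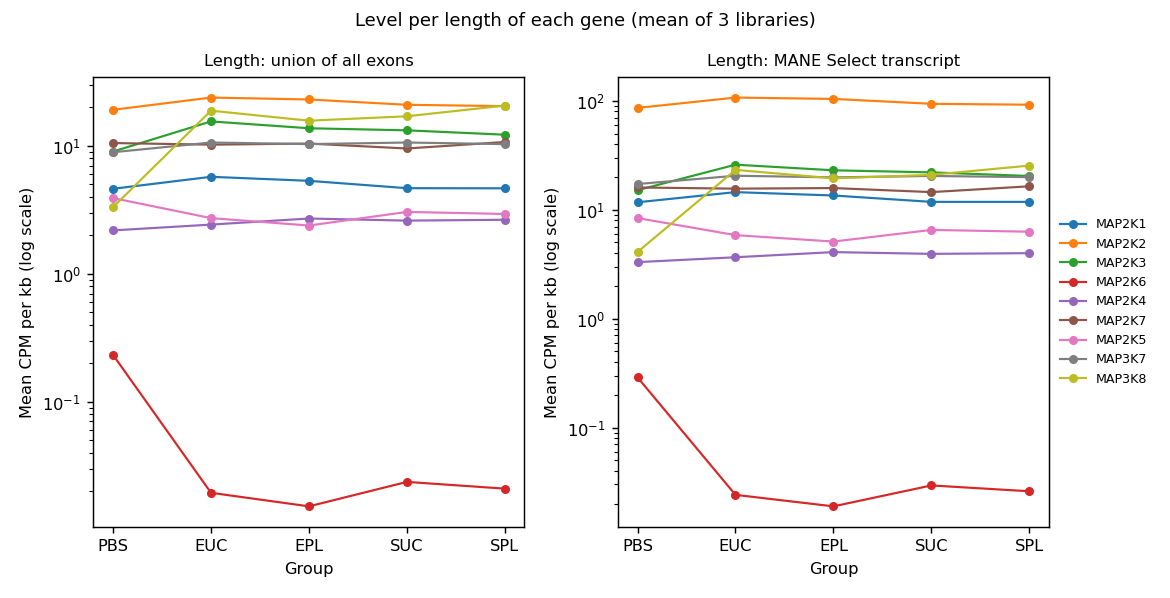
Mean level of each gene in CPM per kb (log axis) by group, with exon-union length on the left and MANE Select length on the right. On the left MAP3K8 goes from 3.31 in PBS to between 15.7 and 20.6, and MAP2K6 goes from 0.232 to between 0.0152 and 0.0236.

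The species and isolation methods were then compared within the stimulated cells. MAP2K6 was chosen for low values in all 4 stimulated groups, so its differences between them are a description and it is left out of the counts. Between E. coli vesicles (EUC and EPL) and S. aureus vesicles (SUC and SPL) 0 of the other 8 genes were called by edgeR, against 3.87% of all tested genes. At an unadjusted p under 0.05 there were 3 of 8, against 17.0% of all tested genes, and DESeq2 also called 0. MAP2K1 was 0.25 higher on the log2 scale with E. coli vesicles (95% interval 0.09 to 0.40, adjusted p = 0.0529), MAP2K3 was 0.20 higher (0.03 to 0.38, adjusted p = 0.21, or 0.12 without the 4 libraries that stood apart) and MAP2K5 was lower, at -0.23 (-0.39 to -0.07, adjusted p = 0.0996). For MAP2K6 the difference was -0.36 (-1.29 to 0.57), an interval that the low counts leave wide. MAP3K7 differed by 0.00 (-0.11 to 0.11). MAP3K8 differed by -0.12 (-0.28 to 0.03, adjusted p = 0.466), but without EPL1, EUC2, EUC3 and SUC3 it was lower with E. coli vesicles, at -0.26, and passed (adjusted p = 0.00536).

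The isolation method gave 0 calls among the 8 genes in either species. Between EPL and EUC edgeR called 0 of 17198 genes, with 604 (3.51%) at an unadjusted p under 0.05, while DESeq2 called 0 of the 8 genes as well. Between SPL and SUC it called 0.00581% of all genes. MAP3K8 had the smallest unadjusted p of the 8 genes in both comparisons. The log2 difference between EPL and EUC was -0.26 (95% interval -0.48 to -0.04, adjusted p = 0.947), and without the 4 libraries that stood apart it was -0.04. Between SPL and SUC it was 0.28 (0.06 to 0.50, adjusted p = 0.814), or 0.33 without the 4 libraries (adjusted p = 0.0417), and SPL and SUC libraries did not overlap, as for 12.8% of all genes. For MAP2K6 the method differences were -0.34 (-1.70 to 1.03) and -0.17 (-1.42 to 1.09), so that changes of about 2-fold lie within both intervals. The first of these turned direction, to 0.53, without the 4 libraries that stood apart.

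**Figure D4:**
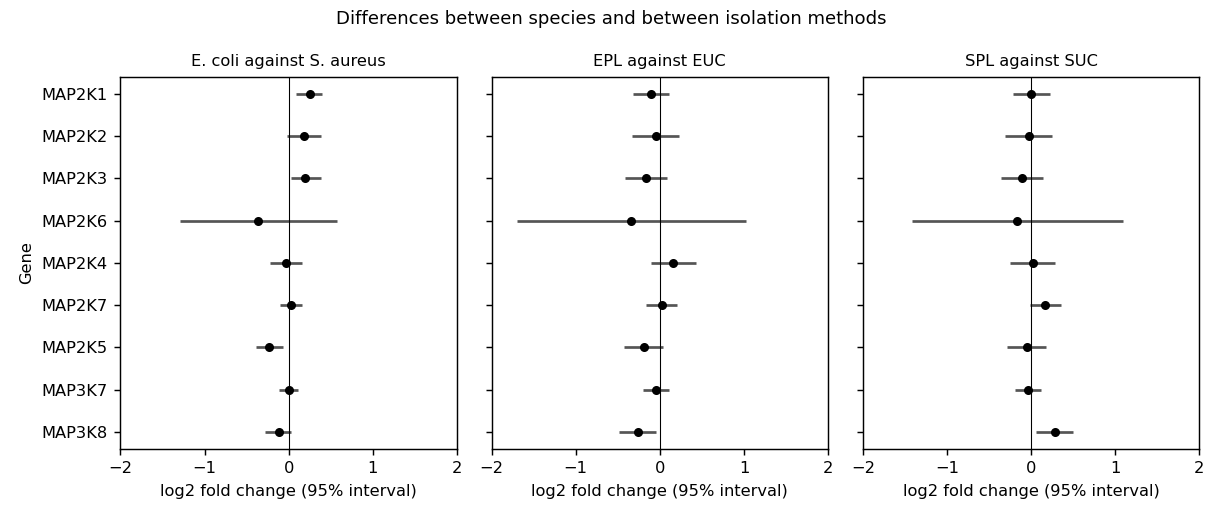
log2 fold change between species and between isolation methods for each gene (points), with the 95% interval derived from the edgeR test (bars). The intervals of MAP2K6 are the widest, from -1.70 to 1.03 between EPL and EUC, and MAP3K8 has -0.26 in that comparison and 0.28 between SPL and SUC.

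The tiers around these genes were described with lists of other pathway genes, written with earlier results of these data known. Among other MAP3K-tier kinases, 21 of 23 were tested, 0 rose and 3 fell in all 4 comparisons with PBS. These were MAP3K6 (mean log2 fold change -0.90, from 51.6 CPM in PBS to between 24.3 and 30.7), MAP3K1 (-0.77), an activator of the JNK branch, and MAP3K21 (-0.71). The median of this list was between 0.04 and 0.18 in the 4 comparisons. With either E. coli preparation 2 of these kinases rose, with either S. aureus preparation 1 rose, and 0 of them met both DEG thresholds upward, as MAP3K8 did. Among all tested genes 10.9% rose and 7.67% fell in all 4 comparisons, and the counts of the lists below stand beside these shares. Without the 4 libraries that stood apart 1 of these kinases rose and 3 fell in all 4 comparisons.

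Among the MAP kinases themselves, 13 of 14 were tested, and 2 rose and 2 fell in all 4 comparisons. MAPK7 (ERK5), the substrate of MAP2K5, rose by 0.56 on average, from 16.9 ± 0.513 CPM in PBS to between 23.9 and 25.7. MAPK6 (ERK3) rose by 0.43. MAPK3 (ERK1) fell by 0.74, from 32.2 ± 2.98 CPM to between 16.5 and 22.4, and MAPK12 (p38γ) fell by 0.62. MAPK14 (p38α), a main substrate of MAP2K3 and MAP2K6, differed by -0.26, -0.20, -0.28 and -0.32 in EUC, EPL, SUC and SPL, with edgeR adjusted p-values of 0.0127, 0.0437, 0.00896 and 0.00386, so that it passed in SUC and SPL. MAPK11 (p38β) went the other way, at 0.78, 0.60, 0.40 and 0.54 in the same order. Its edgeR adjusted p-values were 0.000957, 0.00726, 0.0787 and 0.0166, so that it passed in EUC and EPL. MAPK13 (p38δ) passed in none of the 4 comparisons. MAPK14, MAPK11 and MAPK13 were named after their values were seen, as usual substrates of the kinases described here.

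Of the partner and scaffold genes 15 of 16 were tested, and 2 rose and 1 fell in all 4 comparisons. NFKB1, whose precursor protein binds MAP3K8, rose by 2.62 on average, from 61.1 ± 2.90 CPM in PBS to 429 and 399 CPM with E. coli vesicles (EUC, EPL) and to 327 and 354 CPM with S. aureus vesicles (SUC, SPL). TAB2, an adaptor of MAP3K7, rose by 1.04, and TAB1, another partner of MAP3K7, fell by 0.52. Without the 4 libraries that stood apart 5 partner genes rose and 2 fell in all 4 comparisons. Among MAPK-activated kinases 10 of 11 were tested. MKNK1 (0.72) and RPS6KA1 (0.69) rose in all 4 comparisons, while RPS6KA4 (-1.56), MAPKAPK3 (-1.07) and MKNK2 (-0.57) fell in all 4. Without the 4 libraries that stood apart 4 rose and 3 fell. RPS6KA4 (MSK2) and MAPKAPK3 are both phosphorylated by p38, and so are MKNK1, which rose, and MAPKAPK2 and RPS6KA5. MAPKAPK2 differed by 0.13, 0.01, -0.02 and 0.09 in EUC, EPL, SUC and SPL. The RPS6KA5 values were -0.05, -0.15, 0.10 and -0.20, and neither gene passed in any of the 4. MAPKAPK2 and RPS6KA5 were named after their values were seen. RPS6KA4 went from 207 ± 9.56 CPM in PBS to between 61.6 and 84.1.

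The MAPK phosphatases, which remove the phosphates that MAP kinase kinases add, had the largest median of the 5 lists. All 10 were tested, and 5 rose and 2 fell in all 4 comparisons. DUSP1 rose by 3.69 on average, from 4.73 ± 1.22 CPM in PBS to 86.9 and 75.1 CPM with E. coli vesicles (EUC, EPL) and to 41.3 and 52.7 CPM with S. aureus vesicles (SUC, SPL). DUSP6, which acts on ERK, rose by 3.54, and DUSP4 by 2.77. DUSP9 fell by 1.24 and DUSP7 by 1.10. The median of the list was 1.47, 1.39, 0.84 and 0.97 in EUC, EPL, SUC and SPL. Between E. coli and S. aureus vesicles 5 of the 10 were called, against 3.87% of all tested genes. DUSP1 (0.79), DUSP16 (0.59), DUSP6 (0.52) and DUSP4 (0.33) were higher and DUSP7 (-0.43) was lower with E. coli vesicles. Of the other lists NFKB1 (0.28), MAPKAPK3 (-0.30) and RPS6KA4 (-0.35) were called there. These genes were named for the species comparison after their values were seen.

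**Figure D5:**
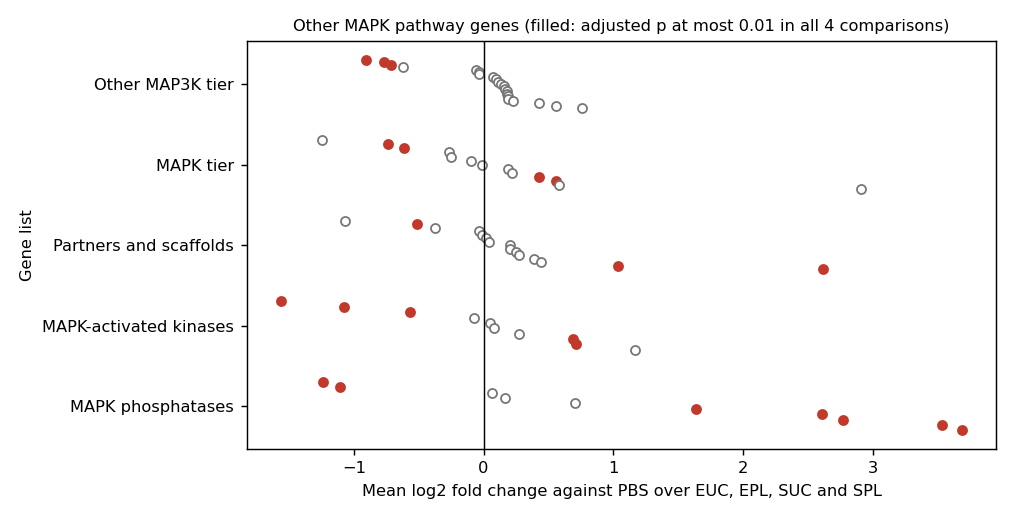
Mean log2 fold change against PBS over the 4 stimulated groups for each tested gene of the 5 pathway lists (points), filled where the gene passed in all 4 comparisons. Filled points lie on both sides of 0 in 4 lists, the other MAP3K tier has filled points only below 0, and the phosphatases reach 3.69.

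Finally, the genes whose levels ran most like those of MAP2K6, MAP3K8 and MAP2K3 were listed from 14525 genes, by Pearson's r of log2 CPM over the 15 libraries. All these correlations share the step between PBS and stimulated libraries. For MAP2K6 they were ITGA4 (r = 0.963), an integrin chain, TBC1D4 (0.961), GATA2-AS1 (0.957), TMEM38A (0.955) and KANK2 (0.954). ITGA4 was at 76.9 CPM in PBS and between 23.2 and 41.6 CPM in the stimulated libraries. For MAP3K8 they were MFSD2A (0.995), OSGIN1 (0.993), NCF1B (0.992), MIR3142HG (0.991) and IFNGR2 (0.990), a chain of the interferon gamma receptor. NCF1B is a near-identical copy of NCF1 and its counts are uncertain. For MAP2K3 they were SPHK1 (0.984), which makes sphingosine 1-phosphate, LYSMD2 (0.979), CSTB (0.973), METRNL (0.970) and BLMH (0.968). METRNL was at 19.2 CPM in PBS and between 37.1 and 86.9 CPM in the stimulated libraries. These values are given as a description.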

How the data were processed

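RNA of THP-1 cells was sequenced as 15 paired-end libraries made with the NEB Next Ultra kit. According to the methods, clean reads were checked with FastQC 0.11.5 and aligned to hg38 with HISAT2 2.1.0 at default settings. The submitters' processing notes also list StringTie 1.3.3b, DESeq 1.28.0 and featureCounts, without roles. Strand setting and annotation release: not given in the sources used here. All deposited values are raw counts per gene, used as deposited.

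Counts were tested with edgeR 4.0.16 in R 4.3.3 (TMM, filterByExpr, quasi-likelihood test, 1 fit of 5 groups and 15 libraries, Benjamini-Hochberg over 17198 genes). The common biological coefficient of variation was 0.118. A gene was called at an adjusted p of at most 0.01. CPM used TMM library sizes, log2 CPM a prior count of 2, and lengths GENCODE 44. The fits were tested on simulated counts with the same spread for every gene, and only genes with higher counts were changed. That test does not cover the low counts of MAP2K6 or the libraries that stood apart. Alternatives were DESeq2 1.42.0, RLE and upper-quartile factors, no filter, only the groups compared, a replicate block, an adjusted p of 0.05 and leaving out each library. GC content and length offsets, leaving out 4 libraries and the MANE length were added after seeing the data. The members and lists were chosen with earlier results of these data known. Named genes were the 9 members, up to 3 genes per direction and list that passed in all 4 comparisons with a mean of at least 1 CPM, and the 5 genes most like MAP2K6, MAP2K3 and MAP3K8. Some genes of the lists are not reported here.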

Additional observations from a re-analysis of the deposited data

How the results depend on the processing

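MAP3K8 kept its call in all 4 comparisons with PBS under every alternative run, and no tested value of a single gene changed direction after a call. Of the values of single genes under an alternative, 1313 stayed on their side of the threshold, 22 dropped below it and 19 rose past it. Leaving out 1 library at a time gave 3 to 5 called genes of 8 in EUC, 3 to 4 in EPL, 1 to 3 in SUC (1 without SUC3) and 1 to 3 in SPL, where MAP2K3 and MAP2K5 were lost together without PBS2, PBS3, EPL2, SUC2, SPL1, SPL2 or SPL3. In EUC the 5 calls came without EPL1. Among all genes, leaving out 1 library gave 4338 to 5534 calls in EUC and 4097 to 5559 in EPL. In SUC it gave 2934 to 4207 and in SPL 3299 to 4621. Offsets for GC content and length gave 5 called genes in EUC, and an adjusted p of at most 0.05 gave 5 in EUC and 4 in SUC. Calls among all genes in EUC were then 5880 with the offsets and 7089 at 0.05, against 5251. In SUC they were 5334 at 0.05, against 3697. Without EPL1, EUC2, EUC3 and SUC3 the counts were 2 in EUC, 5 in EPL, 4 in SUC, 4 in SPL and 1 between E. coli and S. aureus vesicles. Calls among all genes rose without these 4 libraries in each of these comparisons. The rises of the members in EPL, SUC, SPL and between the species were thus not particular to them. In EUC the count of members fell instead. The cause was not tested. Of 230 counts of pathway-list genes that passed in all 4 comparisons under an alternative, 25 moved by more than 1.5 times. The falling partner genes numbered 0 to 2, the rising ones 2 to 5 and the rising kinases of the other MAP3K tier 0 to 3, while the phosphatase counts stayed at 5 and 2.

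Replicate numbers are shared between groups. Deviations of same-numbered libraries from their group means correlated from -0.452 to 0.525 (30 pairs, median 0.0219, 7 over 0.1). Those of differently numbered libraries correlated from -0.484 to 0.488 (60 pairs, median -0.00776, 12 over 0.1), a similar range. With the replicate block the called members were 3, 3, 2 and 3 in EUC, EPL, SUC and SPL and 0 in the other 3 comparisons, and 7 of 15 libraries correlated best with their own number. All genes called went from 5251 to 5226 in EUC with the block. Among all genes, calls in SPL against PBS were 6535 with only the groups compared and 6520 without the 4 libraries, against 4114. Between E. coli and S. aureus vesicles they were 1698 without the 4 libraries and 1169 at 0.05, against 665. Between SPL and SUC they were 38 without the 4 libraries and 5 with DESeq2, against 1. Upper-quartile factors shifted the median of all genes by up to -0.0956. With them MAP2K3 lost its call in SPL (0.37, adjusted p = 0.0181) and MAP2K5 passed in SUC (-0.44, adjusted p = 0.00411). The low counts of MAP2K6 limit what can be said of differences between stimulated groups.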
